A study of Mus musculus with 31 samples.

Results

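Primordial germ cells are the embryonic founders of eggs and sperm. The comparison described here is of H3K27me3, trimethylation of lysine 27 of histone H3, between E13.5 female (ovarian) and E10.5 germ cells, where E is the embryonic day. Its members were chosen by sample title and comprise 6 of the 31 samples, or 6 of the 18 peak lists, of the series: 3 lists of E13.5 female cells and 3 of E10.5 cells. The cells were wild type on a C57BL/6 x GOF18delta_PE-EGFP background, a germ-cell reporter by which they were sorted. Each ultra-low-input native ChIP used 1000 cells. Each E10.5 sample is a pool over several embryos with no sex given, so that stage and sex cannot be told apart in any value below. Nothing in the labels tells whether replicates are separate animals or litters, and the sample numbers in the peak names of replicates 1 and 2 end alike in both groups, which leaves unknown whether they are the same samples processed again. The p-values below therefore reflect the spread among 6 lists, part or all of which may be technical.

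H3K27me3 is written by the EZH2 or EZH1 subunit of Polycomb repressive complex PRC2 and is read by PRC1. In embryonic cells it lies over CpG-rich promoters of silent developmental regulators, often as domains that span a gene or a cluster of genes. Between these stages the germ-cell genome loses most of its DNA methylation, female germ cells reactivate their silent X chromosome, and ovarian germ cells approach meiosis. The study set out to follow chromatin during this loss. Positions are in mm9, and since no mm9 annotation was used, regions carry no gene names and the cell identity could not be checked against marker genes. H3K27me3 gave no check of sex, with 0 peaks on Y in each female list and 2, 1 and 0 in the E10.5 lists.

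Each list holds the broad peaks of 1 library, and sequencing depth is unknown. The E13.5 female lists held 2629, 7839 and 6813 peaks, and the E10.5 lists 11330, 1703 and 23141, in the order of replicates 1, 2 and 3, which is kept throughout. E10.5 replicate 2 stands apart from its group by its short list, and its lowest peak score, 19.9, was the highest of the 6 lists. The lowest scores were 16.2, 14.5 and 13.4 in the female lists and 15.5, 19.9 and 13.2 in the E10.5 lists, so the lists were not called to one score. The narrowest peak was 167, 147 and 151 bp in the female lists and 213, 259 and 146 bp in the E10.5 lists. The smallest gap between neighbouring peaks was 669, 589 and 605 bp in female and 853, 1037 and 585 bp in E10.5 lists, near 4 times the narrowest width in each. The distance under which no peaks stayed apart thus differed between lists, and replicate 3 is the E10.5 list closest to female replicates 2 and 3 in both measures.

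In all 3 lists of E13.5 female germ cells the typical H3K27me3 peak was narrower than in any E10.5 list. Single peaks of 5 kb or wider held a large part of the covered length in E10.5 replicates 1 and 3. Peaks of that width were nearly absent from the female lists as deposited, though narrower female peaks touched many of these E10.5 peaks. Median peak width was 431, 510 and 469 bp in the female lists, against 923.5, 827 and 728 bp in the E10.5 lists. The groups did not overlap, with means of 470.0 ± 39.5 bp in female and 826 ± 97.8 bp in E10.5 lists (SD, n = 3 each). An exact two-sided permutation test gave p = 0.1, the smallest that 3 against 3 lists allow, and 0.15 after Benjamini-Hochberg adjustment over 6 such tests. The groups were also apart at the wide end. The 90th percentile of width was 1179, 1342 and 1227 bp in female lists, against 3876, 2654 and 3486 bp in E10.5 lists.

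Peaks of 5 kb or wider numbered 1, 5 and 2 in the female lists and 748, 35 and 1340 in the E10.5 lists. They held 0.391, 0.513 and 0.327% of the covered length in female cells and 34.5, 10.51 and 34.7% in E10.5 cells, with group means of 0.411 ± 0.094% in female and 26.6 ± 13.9% in E10.5 lists (SD, n = 3 each). The lists did not overlap (exact permutation p = 0.1, adjusted p = 0.15). No female peak reached 10 kb, whereas 200, 1 and 370 E10.5 peaks did. The widest female peaks spanned 6101 bp (chr17:48052928-48059028), 5497 bp (chr10:57684206-57689702) and 7033 bp (chr2:33437420-33444452). In E10.5 replicates 1 and 3 the widest peak was the same place, chr15:102767568-102811300 with 43733 bp and chr15:102775678-102818266 with 42589 bp. The E10.5 replicate 1 peak there was covered to 24.1, 52.5 and 33.5% by female peaks, and to 41.9% by peaks of E10.5 replicate 2.

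**Figure D1:**
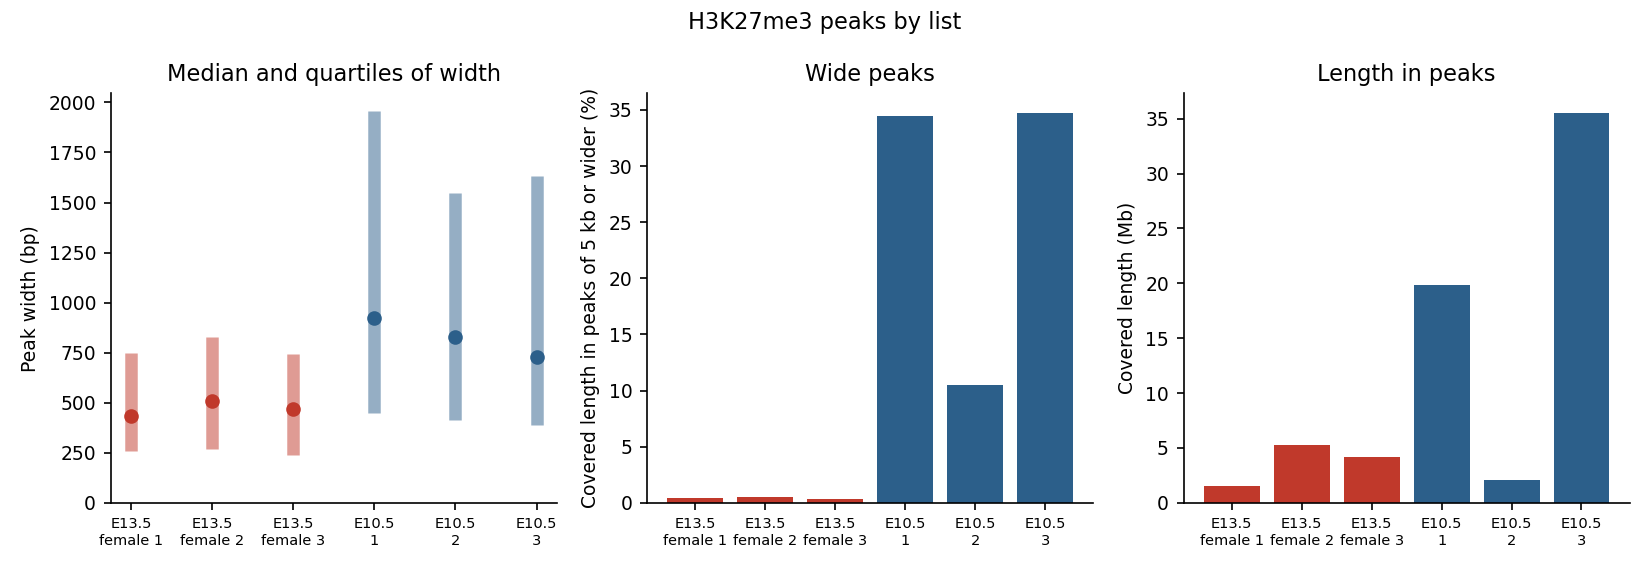
Width of H3K27me3 peaks (bp, dot for the median and bar from the lower to the upper quartile), share of covered length in peaks of 5 kb or wider (%), and covered length (Mb), with 1 position per list and female lists in red. All female medians lie at or under 510 bp and all E10.5 medians at or above 728 bp, whereas the covered length of E10.5 replicate 2 (2.08 Mb) falls within the female range.

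The order of the stages in width was the same with equal numbers of peaks. With the 1703 highest-scoring peaks of every list, the number in the shortest, median width was 396, 489 and 409 bp in female lists and 1571, 827 and 2958 bp in E10.5 lists. The share held by peaks of 5 kb or wider was then 0.585, 0.894 and 0.651% in female and 63.6, 10.51 and 76.1% in E10.5 lists. These peaks are the whole of E10.5 replicate 2 and the top of the longer lists, and the median of E10.5 replicate 3 was 728 bp before this choice, so the sizes of these differences are not comparable with those above. When peaks nearer than 1037 bp were joined and peaks under 259 bp left out in every list, a rule added after seeing the data, median widths were 611, 684 and 649 bp in female and 1061, 827 and 1166 bp in E10.5 lists. The share in wide peaks became 2.52, 10.6 and 6.65% in female and 42.4, 10.51 and 54.3% in E10.5 lists, so that E10.5 replicate 2 fell within the female range (exact permutation p = 0.2). The low share of wide female peaks relative to E10.5 replicate 2 thus did not hold with a common smallest gap and width, while that relative to E10.5 replicates 1 and 3 did. The joining and the width filter were applied together, and their separate parts were not tested.

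Covered length did not separate the stages in the lists as deposited. Female peaks covered 1.56, 5.22 and 4.13 Mb and E10.5 peaks 19.9, 2.08 and 35.5 Mb, or 3.64 ± 1.88 Mb in female and 19.2 ± 16.7 Mb in E10.5 lists (SD, n = 3 each; exact permutation p = 0.3, adjusted p = 0.3). E10.5 replicate 2 covered less than female replicates 2 and 3. Among peaks with a score of at least 20 the lists did not overlap, at 0.829, 1.52 and 0.865 Mb in female and 16.9, 2.08 and 27.04 Mb in E10.5 lists (exact permutation p = 0.1). That filter kept 1702 of the 1703 peaks of E10.5 replicate 2, but 1372 of 2629, 2099 of 7839 and 1418 of 6813 female peaks. The separation thus depends on where the score was cut. With equal numbers of peaks the lists did not overlap either, at 1.04, 1.22 and 1.08 Mb in female and 5.63, 2.08 and 8.45 Mb in E10.5 lists (exact permutation p = 0.1). At equal numbers covered length is set by mean width, so this repeats the width result and is no further evidence.

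Most 10-kb places marked in female cells were also marked in the longer E10.5 lists, while a smaller share of the female peak length itself lay in E10.5 peaks. A list was taken to hold a 10-kb bin where at least 1 kb of it lay in peaks. The female lists held 489, 1699 and 1278 bins and the E10.5 lists 5164, 651 and 8658. Of the bins of each female list, 94.1, 83.4 and 85.6% were held by E10.5 replicate 1 and 96.9, 92.9 and 93.0% by E10.5 replicate 3. E10.5 replicate 2 held 41.1, 22.5 and 25.8% of them. By length, 72.7, 58.7 and 56.5% of the female peaks lay in peaks of E10.5 replicate 1, 18.9, 11.3 and 11.5% in those of replicate 2 and 82.1, 76.5 and 73.4% in those of replicate 3. In the other direction female lists held 8.91, 27.4 and 21.2% of the bins of E10.5 replicate 1 and 5.47, 18.2 and 13.7% of those of replicate 3. The short E10.5 replicate 2 behaved in the same way toward its own group, since 97.5 and 99.2% of its bins were held by E10.5 replicates 1 and 3, and 30.9, 58.8 and 50.7% by the female lists. Female lists shared 22.8 to 79.3% of their bins with each other. These shares follow the length of the list on the other side and were not tested.

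**Figure D2:**
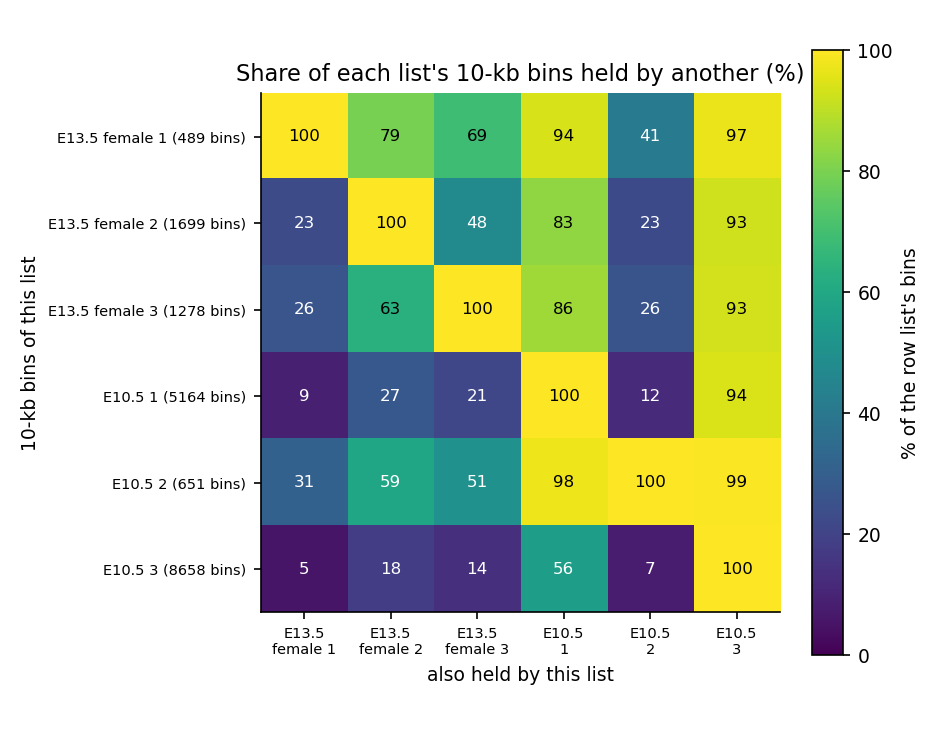
Share of the 10-kb bins of the list in each row that is also held by the list in each column (%), female lists first. Female rows reach 83 to 97% in the columns of E10.5 replicates 1 and 3, and the rows of those E10.5 lists reach 5 to 27% in the female columns.

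Bins held by every female list were a near subset of the E10.5 bins. Of 303 such bins, 300 (99.0%) were held by at least 1 E10.5 list and 294 (97.0%) by at least 2. Of 633 bins held by every E10.5 list, 442 (69.8%) were held by at least 1 female list. That set is limited by E10.5 replicate 2, which held 651 bins. Of all 2234 bins held by at least 1 female list, 2042 (91.4%) were held by at least 1 E10.5 list. Of the 8961 bins held by at least 1 E10.5 list, 22.8% were held by a female list. These shares follow the length of the lists and were not tested. Among the 9153 bins held by any of the 6 lists, 3 (0.0328%) were held by all female lists and no E10.5 list, and 191 (2.09%) by all E10.5 lists and no female list. Of the 191 bins, 56 had no female peak at all and 135 had some female peak length short of 1 kb. These 191 bins held on average 0.106, 0.276 and 0.239 kb in the female lists, and 4.66, 1.99 and 5.96 kb in the E10.5 lists. The rule that chose them puts female means under 1 kb and E10.5 means at or above it. The means are thus a description and no further evidence.

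The longest run of bins held by every E10.5 list and no female list was chr4:88930001-88960000. It held 0, 0 and 0.959 kb in female lists against 14.9, 7.58 and 22.5 kb in E10.5 lists. The next 9 regions, each of 20 kb, held 0 to 1.68 kb in any female list and 2.47 to 18.4 kb in any E10.5 list. At 3 of them no female list had any peak. Region chr7:86680001-86700000 held 0 kb in each female list against 11.4, 8.74 and 16.2 kb in E10.5 lists. Region chr11:84330001-84350000 held 0 kb in female lists against 11.6, 7.08 and 11.8 kb in E10.5 lists. Region chr16:18580001-18600000 held 0 kb in female lists against 10.2, 4.10 and 11.4 kb in E10.5 lists. On chromosome 7 the first of these lay 20 kb from another such region, chr7:86640001-86660000, with 0, 0.996 and 0.271 kb in female and 15.8, 8.93 and 18.4 kb in E10.5 lists. Female peaks were present but short at chr12:50480001-50500000, with 1.08, 1.68 and 0.641 kb in female lists against 15.4, 5.33 and 13.455 kb in E10.5 lists. They were likewise short at chr10:79950001-79970000, with 0.548, 0.825 and 1.15 kb in female lists against 12.3, 7.35 and 17.9 kb in E10.5 lists. The remaining named regions were chr6:85130001-85150000, chr2:18610001-18630000 and chr2:146040001-146060000, with female means of 0.459, 0.489 and 0.197 kb against E10.5 means of 11.7, 7.96 and 7.62 kb (n = 3 each). All these regions were chosen by the rule for separating bins. Their low female and higher E10.5 lengths are therefore no further evidence.

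Among the 6 lists, the bins held by female lists alone formed 2 regions. All 3 E13.5 male lists also had H3K27me3 peaks at both, so these places are not particular to female cells. Region chr10:57680001-57700000 held 5.60, 10.4 and 8.95 kb in female lists and 0 kb in each E10.5 list. Region chr8:56200001-56210000 held 2.58, 3.88 and 3.61 kb in female lists and 0, 0 and 0.593 kb in E10.5 lists. At the chromosome 10 region H3K9me3, the mark of constitutive heterochromatin, had 0 kb of peaks in each female list and 0, 9.81 and 2.00 kb in the E10.5 lists. At the chromosome 8 region it had 0.500, 1.17 and 0.525 kb in female and 0, 2.23 and 0 kb in E10.5 lists.

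The count of separating bins depended on how the lists were made alike. With the same number of top-scoring peaks, 8 bins were held by female lists alone and 197 by E10.5 lists alone. With the same covered length instead, 1.56 Mb of top-scoring peaks in every list (a setting added after seeing the data), 45 bins were held by female lists alone and 13 by E10.5 lists alone, so the order of the counts turned round. At that length E10.5 replicates 1 and 3 were left with 709 and 303 peaks packed into 345 and 270 bins, against 2629, 2146 and 2391 peaks in 489, 518 and 491 bins in the female lists. Of the 45 female bins, 42 were held by at least 1 E10.5 list when all peaks were kept. Without female replicate 1, female replicate 3 or E10.5 replicate 3 the female count was 12, 5 or 8 bins, and without E10.5 replicate 2 the E10.5 count was 3075 bins. The number of marked places and the length of the lists cannot be told apart here. The 2 female regions were chosen by the rule that no E10.5 list has 1 kb of peaks in a bin. The absence of E10.5 peaks there is thus no further evidence.

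**Figure D3:**
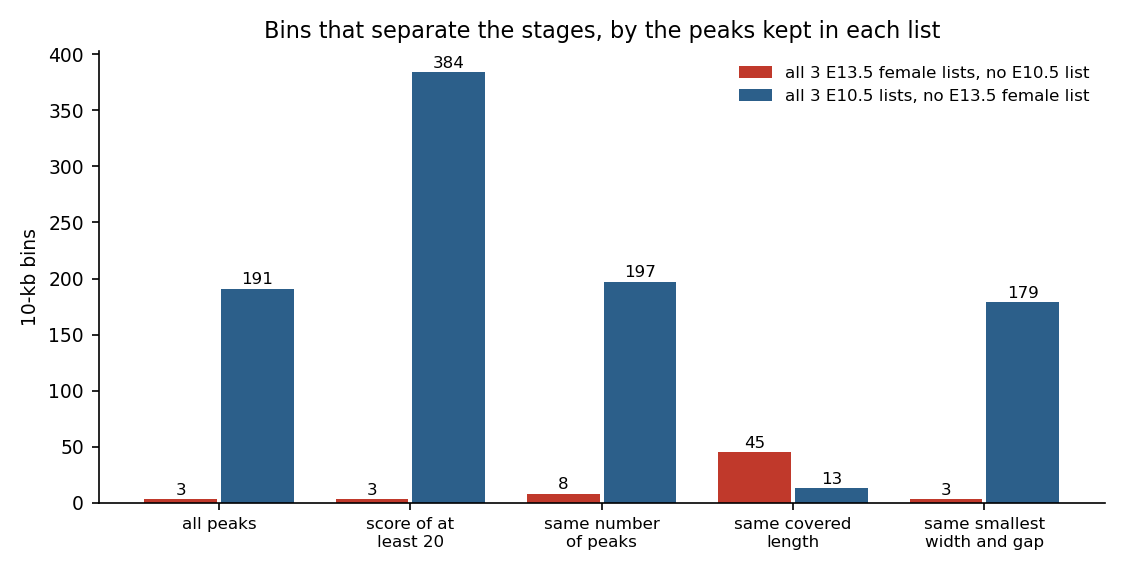
Number of 10-kb bins held by all 3 lists of one stage and no list of the other, for 5 choices of the peaks kept, female bins in red. Female bins are fewer than E10.5 bins in 4 choices (3 against 191 with all peaks) and more, 45 against 13, where every list is cut to the same covered length.

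At places marked in every list, each female list filled less of the bin on average than any E10.5 list. All 6 lists held 153 autosomal bins, and none on X. Mean length in peaks per bin was 2.13, 3.34 and 2.85 kb in female lists against 8.57, 3.52 and 8.83 kb in E10.5 lists. The group means were 2.77 ± 0.61 kb in female and 6.97 ± 2.99 kb in E10.5 lists (SD, n = 3 each; exact permutation p = 0.1, adjusted p = 0.15). The lists did not overlap, though the gap between female replicate 2 and E10.5 replicate 2 was small. Every female list had less than every E10.5 list in 62 of the 153 bins (40.5%) and more in 0 of them (0%). Against E10.5 replicates 1 and 3 alone, every female list was lower in 149 bins. Against E10.5 replicate 2 alone, every female list was lower in 65 bins and higher in 22. Bins filled to 9 kb or more numbered 0 in each female list and 76, 0 and 98 in the E10.5 lists. With that common smallest gap and width the means were 2.52, 4.22 and 3.46 kb in female and 8.80, 3.54 and 9.23 kb in E10.5 lists, and E10.5 replicate 2 lay within the female range (exact permutation p = 0.2). The lists also overlapped where any peak length was enough to hold a bin. The group means were then 1.87 kb in female and 5.80 kb in E10.5 lists (exact permutation p = 0.2).

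The longest run of bins held by all lists was chr15:102760001-102810000. It held 11.02, 24.2 and 15.4 kb in female lists against 49.1, 22.5 and 48.9 kb in E10.5 lists. Region chr9:91250001-91290000 held 8.94, 14.2 and 13.8 kb in female and 33.7, 8.45 and 37.0 kb in E10.5 lists. E10.5 replicate 2 lay inside the female range at the first place and below it at the second. The groups did not overlap at chr6:52170001-52200000, with 5.75, 11.9 and 11.2 kb in female against 27.1, 12.9 and 29.3 kb in E10.5 lists. They did not overlap at chr2:71360001-71380000 either, with 4.61, 4.63 and 5.69 kb in female lists against 13.51 kb in E10.5 replicate 2 and the whole 20 kb in E10.5 replicates 1 and 3. Region chr6:83650001-83670000 gave 5.28, 7.74 and 7.81 kb in female lists, against 12.05 kb in E10.5 replicate 2 and again the whole 20 kb in E10.5 replicates 1 and 3. Regions chr8:12380001-12410000, chr2:74510001-74540000, chr5:120110001-120140000 and chr5:140010001-140030000 had female means of 8.09, 8.86, 8.82 and 7.55 kb and E10.5 means of 22.9, 21.4, 18.7 and 14.6 kb, with overlap between lists. The last region, chr9:3000001-3030000 near the start of chromosome 9, held 11.6, 7.35 and 6.43 kb in female and 21.2, 19.1 and 7.20 kb in E10.5 lists. It also carried H3K9me3 peaks, whose length there was 26.99, 21.4 and 23.2 kb in female and 28.2, 29.99 and 10.05 kb in E10.5 lists, against 0 kb in every list at the other 9 regions.

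Female peaks touched a larger share of the wide than of the narrow E10.5 peaks. Of the 200 peaks of E10.5 replicate 1 that were 10 kb or wider, the female lists touched 85.0, 98.0 and 97.0%, with a peak of at least 1 bp overlap. Of its 6015 peaks under 1 kb they touched 4.85, 10.6 and 7.71%. Of the length of the widest domains, female peaks covered 12.5, 28.6 and 21.9%. They did so as several separate peaks, on average 3.09, 4.85 and 4.11 per touched domain, against 2.77 and 1.695 for E10.5 replicates 2 and 3. The smallest gap between peaks differs between lists, and its part in these numbers was not tested. For the 370 domains of that width in E10.5 replicate 3, female lists touched 73.5, 95.1 and 94.1% and covered 9.61, 23.9 and 18.9% of the length. Peaks of 5 to 10 kb were touched at 49.1, 82.1 and 75.2% for E10.5 replicate 1 and 35.1, 71.1 and 64.2% for E10.5 replicate 3. In E10.5 replicate 2 the female lists touched 20.6, 31.4 and 25.1% of the 993 peaks under 1 kb and 79.4, 94.1 and 94.1% of the 34 peaks of 5 to 10 kb. E10.5 replicate 2, a list of the same stage, gave values like the female ones, with 88.0% of the replicate 1 domains touched and 27.2% of their length covered. Wider peaks offer more length to touch, so the order of the shares by width was not tested.

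Female peaks inside E10.5 domains were spread over the domain and thinned toward its ends. Along the 748 peaks of 5 kb or wider in E10.5 replicate 1, female coverage was 10.7, 26.4 and 21.0% in the central 50% of the domain and 7.52, 18.8 and 12.4% in the outer 10% on either side. In the flanks it was 3.40, 9.70 and 7.06%. E10.5 replicate 3 covered 94.2% of the same central part, 87.5% of the ends and 54.0% of the flanks, and E10.5 replicate 2 covered 22.6, 11.6 and 4.02% of these parts. The ratio of centre to ends was 1.43, 1.40 and 1.69 in the female lists, and 1.94 and 1.08 in E10.5 replicates 2 and 3. Along the 1340 such peaks of E10.5 replicate 3 it was 2.42, 1.72 and 1.85 in the female lists, and 1.42 and 2.83 in E10.5 replicates 1 and 2. The ends are the peak borders of the E10.5 list that defined the domains. Coverage by the other E10.5 lists fell there too, so the thinning is not particular to female peaks.

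**Figure D4:**
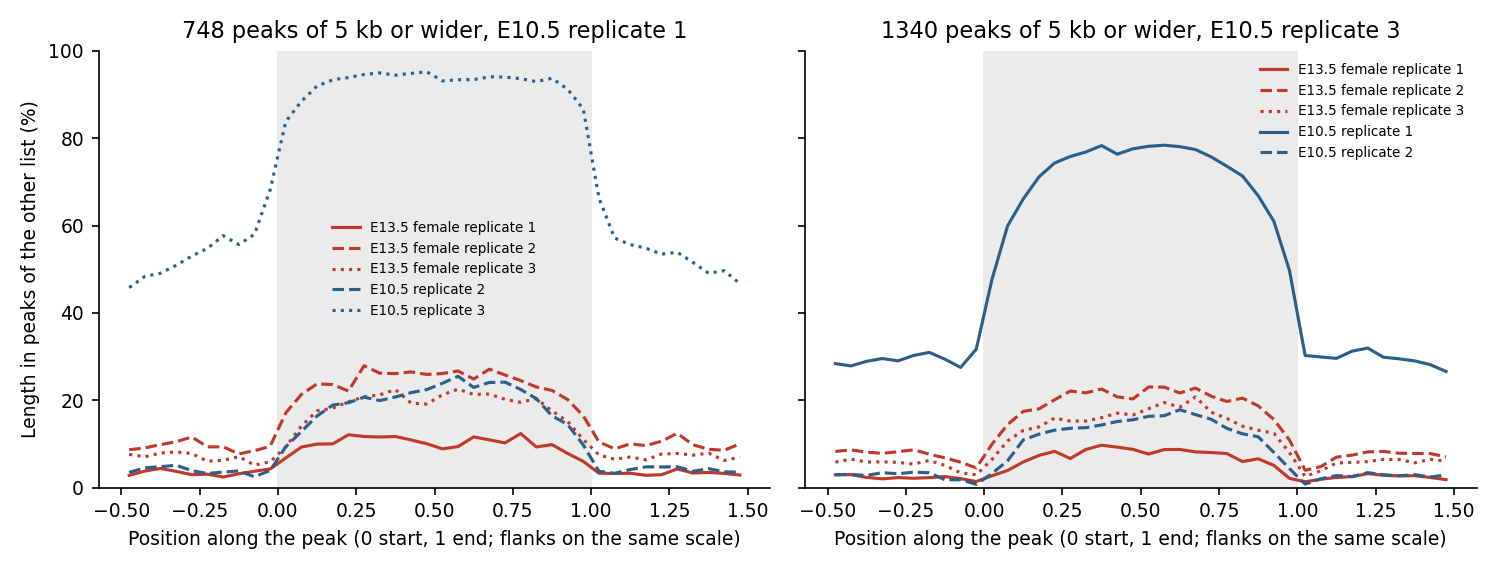
Length in peaks of each other list (%) along E10.5 peaks of 5 kb or wider, scaled from start (0) to end (1) with flanks on the same scale, for peaks of E10.5 replicate 1 (left) and replicate 3 (right). Female lists (red) and E10.5 replicate 2 (dashed blue) stay under 30% and decline toward the ends, while the longer E10.5 list covers most of the domain.

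On the autosomes, chromosomes 5, 11 and 19 had the 3 highest mean levels in both stages and chromosomes 16 and 3 the lowest, while 5 autosomes passed a test of the difference. A chromosome's share of a list's autosomal peak length was divided by its share of autosomal length, so that 1 means no excess. In the mean over the 6 lists chromosome 19 was highest, at 1.78 ± 0.08 in female and 1.99 ± 0.40 in E10.5 cells, followed by chromosome 5, which was the highest in female cells, and chromosome 11. Chromosome 11 had 1.52 ± 0.03 in female and 1.65 ± 0.28 in E10.5 cells. The lowest in that mean were chromosome 16, chromosome 3 (0.525 ± 0.032 in female and 0.535 ± 0.036 in E10.5 cells) and chromosome 1 (0.576 ± 0.051 in female and 0.688 ± 0.082 in E10.5 lists; SD, n = 3 each). Over the 19 autosomes this ratio rose with the number of protein-coding genes per Mb, with Pearson correlations of 0.51, 0.52 and 0.57 in female and 0.68, 0.58 and 0.70 in E10.5 lists. These are across chromosomes, which are not replicates, and the 6 lists share the same gene counts.

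In a limma fit of the 6 lists over the 19 autosomes, 5 (26.3%) passed an adjusted p of 0.05, of which 2 were higher and 3 lower in female cells. Chromosome 5 had ratios of 1.74, 1.92 and 1.97 in female lists against 1.39, 1.29 and 1.55 in E10.5 lists, a log2 change of 0.42 ± 0.11 (SE, limma adjusted p = 0.00783). Chromosome 17 had 1.31, 1.38 and 1.42 in female lists against 1.11, 0.856 and 1.11 in E10.5 lists, a log2 change of 0.43 ± 0.12 (SE, limma adjusted p = 0.00783). Chromosome 2 was lower, with 1.12, 1.06 and 1.04 in female lists against 1.33, 1.52 and 1.26 in E10.5 lists (log2 change -0.35 ± 0.11, limma adjusted p = 0.0254). Chromosome 7 had 0.638, 0.874 and 0.859 in female against 0.939, 1.00 and 1.02 in E10.5 lists, and chromosome 16 had 0.441, 0.417 and 0.432 in female against 0.500, 0.565 and 0.522 in E10.5 lists (limma adjusted p = 0.0382 for both). Without female replicate 3 none of the 5 passed (limma adjusted p = 0.0634 for each), and a fit with the E13.5 male lists added, 1 of which is very short, called none. Of the 5, chromosome 2 was also lost without female replicate 2 (0.0930), chromosome 7 without female replicate 1 (0.314), E10.5 replicate 2 (0.0605) and E10.5 replicate 3 (0.0886), and chromosome 16 without female replicate 1 (0.0577), female replicate 2 (0.198), E10.5 replicate 1 (0.0602) and E10.5 replicate 3 (0.0886), all as limma adjusted p. At equal covered length chromosome 5 had a log2 change of 0.22 (limma adjusted p = 0.500), chromosome 7 one of 0.47 and chromosome 16 one of -0.26 (0.500 for both). Chromosomes 7 and 16 were also lost with equal numbers of peaks (0.115 and 0.244) and with a score of at least 20 (0.166 and 0.208), and chromosome 17 with that score filter (0.0651). With replicate number added to the fit, limma adjusted p was 0.0535 for chromosomes 2 and 7, 0.0874 for chromosome 16 and 0.0194 for chromosomes 5 and 17. Since shares of a list sum to a whole, a rise of one chromosome lowers others.

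**Figure D5:**
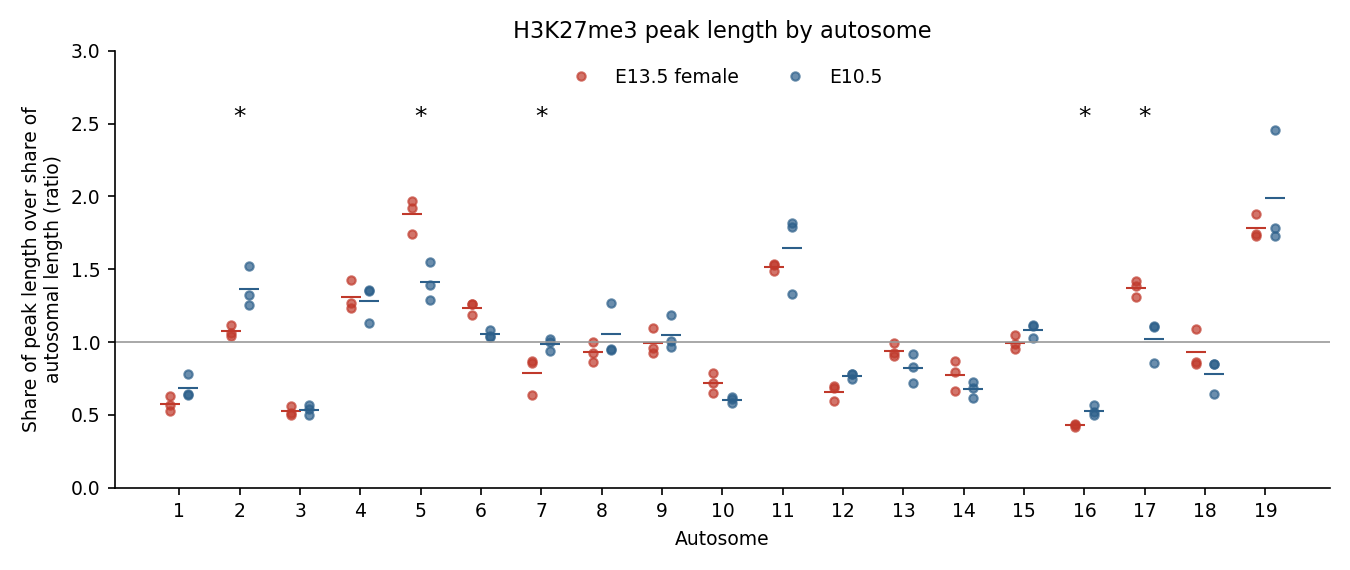
Share of autosomal H3K27me3 peak length on each autosome over that autosome's share of autosomal length (ratio, 1 marked by a line), with 1 dot per list, a dash for the group mean, and female in red left of E10.5 in blue. Asterisks mark the 5 autosomes past an adjusted p of 0.05 in limma, of which 5 and 17 are higher and 2, 7 and 16 lower in female cells.

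Along the autosomes, whose centromere lies at the start in mouse assemblies, the first of 10 equal segments held the least mark in both stages, and segments 8 and 10 the most. Segment 1 held 3.68 ± 0.82% of the autosomal peak length in female and 4.14 ± 1.11% in E10.5 cells, and segment 8 held 17.9 ± 0.49% in female and 16.1 ± 0.95% in E10.5 lists (SD, n = 3 each). Segment 10 held 15.2, 14.7 and 16.1% in female and 16.2, 17.6 and 16.1% in E10.5 lists, with overlap and a difference of -1.32 percentage points (exact permutation p = 0.2, adjusted p = 0.24). The lists did not overlap and the difference was -2.83 points with a score of at least 20, -2.87 with equal numbers of peaks and -2.58 at equal covered length (exact permutation p = 0.1 for each). Without E10.5 replicate 2 the difference in the lists as deposited was -0.83 points. In the lists as deposited, segment 8 was the only 1 of 10 segments where the stages did not overlap. With 3 against 3 lists, 1 in 10 is near the share expected without a stage difference. Segment 8 was not tested.

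Among 1591 bins of 1 Mb, limma on the share of each list's covered length called 2 bins higher in female cells (0.126%) and 2 lower (0.126%). On chr10:57000001-58000000 the share was 4489, 2212 and 2336 ppm in female lists against 0, 0 and 47.1 ppm in E10.5 lists, a log2 change of 4.70 ± 0.59 on the scale of ppm + 100 (SE, limma adjusted p = 0.00320). On chr8:56000001-57000000 it was 1929, 781 and 921 ppm in female lists against 0, 0 and 16.7 ppm in E10.5 lists (log2 change 3.54 ± 0.59, limma adjusted p = 0.0338). These bins contain both female regions named above and are no further evidence for them. On chr11:84000001-85000000 it was 0, 0 and 51.8 ppm in female lists against 1017, 3396 and 798 ppm in E10.5 lists (limma adjusted p = 0.0354). On chr16:18000001-19000000 the share was 0 ppm in each female list and 903, 3321 and 582 ppm in E10.5 lists. That bin entered the fit, which needs peaks in 3 lists, through the E10.5 lists alone, so it had to differ and its values are a description. The chromosome 8, 10 and 11 bins had peaks in 1 list of the other stage, but the higher stage alone met that need. Their limma p-values are therefore no independent support. The chromosome 11 and 16 bins contain E10.5 regions named above and are no further evidence for those regions. The size of such changes is bounded by the 100 ppm added. Without female replicate 1 none of the 4 bins passed, and without female replicate 2 or 3 only the chromosome 10 bin did. The chromosome 16 bin falls below the 3 lists needed for a test once any E10.5 list is left out.

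X held less of the mark than its share of the genome in every list, and a larger share of the peak length in each female list than in any E10.5 list. X is 6.31% of the genome, and it held 3.18, 3.33 and 3.16% of the peak length in female lists against 1.79, 0.610 and 2.20% in E10.5 lists. The lists did not overlap, with means of 3.23 ± 0.10% in female and 1.53 ± 0.82% in E10.5 lists (SD, n = 3 each; exact permutation p = 0.1, adjusted p = 0.15). In 10-kb bins, X gave 11, 58 and 30 bins in female and 109, 2 and 220 bins in E10.5 lists. As a share of the bins held this was 2.25, 3.41 and 2.35% in female and 2.11, 0.307 and 2.54% in E10.5 lists, and here the lists overlapped. No X bin was held by all 6 lists, 6 were held by all female lists, and each of these 6 was held by 2 E10.5 lists. The E10.5 pools are of unlabelled sex, so the number of X chromosomes per cell cannot be told apart from the mark.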

How the data were processed

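Ultra-low-input native ChIP libraries were made from 1000 sorted cells with 250 ng of antibody and sequenced as 100-bp paired ends, per the labels' protocols. Per the submitters' processing notes, the software was MACS2 2.1.0, deepTools 3.3.0, BWA 0.7.5a, CASAVA 1.8.4, SAMtools and Picard, listed without roles, and the build was mm9. Peak thresholds are not given in the sources used. Peaks were called per library against an input, per the peak names in the files. For E10.5 replicate 3 they name the input of H3K9me3. The deposited score of each peak (column 9) is of unknown scale and was used only to rank or filter peaks of a list; starts and ends are the other deposited values used. The lists hold no counts, so that depth is unknown and no interval from counting error can be given. Mitochondrial peaks (19 in all 18 lists) were left out, and chromosome lengths were taken as the last peak end over all 18 lists. The reference at hand is of GRCm38, so its positions were not used; the RefSeq table of GRCm38.p6 gave only the number of protein-coding genes per chromosome.

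Each single value per list was tested by enumerating all splits of the 6 lists (exact permutation, two-sided), with adjustment over 6 tests. Shares per autosome (log2 ratio) and per 1-Mb bin (log2(ppm + 100), bins with peaks in at least 3 of 6 lists) were fitted with limma 3.58.1 in R 4.3.3, with Benjamini-Hochberg adjustment at 0.05. The limma step was also run on simulated tables with normal noise around the mean of each 1-Mb bin. These lack the floor set by the added 100 ppm, so they are no check of the calls above. Named regions are the 10 longest runs of separating or shared bins per kind, ties broken by peak length, together with called 1-Mb bins and autosomes, the 3 highest and lowest autosomes, the widest peaks, and X and Y. Members and rules were chosen with earlier results of these data known. Alternatives were score and rank filters, equal covered length, a common smallest gap and width, other bin rules, other offsets, a replicate block, 9 lists in place of 6, and each list left out in turn.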

Additional observations from a re-analysis of the deposited data

How the results depend on the processing

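The 6 single-value differences kept their direction under every alternative run, and none could pass 0.05 with 3 against 3 lists. Bins held by female lists alone (3) numbered 8 with equal numbers of peaks, 45 at equal covered length (a setting added after seeing the data, as is the common smallest gap), 26 with any overlap, 0 with at least 5 kb of a bin, and 3 to 12 with 1 list left out. Bins held by E10.5 lists alone (191) numbered 384 with a score of at least 20, 13 at equal covered length, 47 where a bin needed 5 kb of peak length, 117 in 50-kb bins, and 191 to 3075 with 1 list left out. Called autosomes (5) numbered 0 in the limma fit of 9 lists (2 at an unadjusted p under 0.05), 2 with the replicate block, 2 at equal covered length, and 0 to 6 with 1 list left out (8 unadjusted where it was 0). The log2 change of chromosome 7 turned to 0.47 at equal covered length; the cause was not tested. Called 1-Mb bins (4 of 1591) numbered 7 with 1000 ppm added, 0 in limma with 10 ppm added (7.48% of bins at an unadjusted p under 0.05) and 18 with the replicate block. The other settings tested other numbers of bins. Calls were 0 of 1743 in the fit of 9 lists (134 unadjusted) and 2 of 2260 over all bins with a peak. They were 107 of 668 at equal covered length (100 higher and 7 lower in female cells). With equal numbers of peaks they were 56 of 783, and 31 of 1128 with a score of at least 20. With 1 list left out they were 0 to 14 (155 unadjusted of 1520 where it was 0). In each setting a bin could enter the fit through 1 stage alone, so these counts are no independent support. Whether the replicate numbers pair the lists is unknown. The deviations of same-numbered lists from their group means correlated at -0.15, -0.21 and 0.14 over 1591 bins. Those of lists with different numbers correlated at -0.27 to 0.24. Deviations from a mean of 3 lists sum to 0, so these correlations cannot decide whether the lists are paired. With the replicate block, exact sign-flip tests of the single values allow no p under 0.25. Of single autosomes and 1-Mb bins under an alternative, 62 values stayed past the threshold in the same direction and 53 fell short of it. The count of peaks and the score reached in each list, not a known read depth, limit every value.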

Other observations

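The E13.5 male lists were looked up at the places named above. At chr4:88930001-88960000 and chr11:84330001-84350000, both held by E10.5 and not by female lists, H3K27me3 peaks covered 0 kb in each of the 3 male lists. The other 8 named regions of that kind had a peak in at least 1 male list, for example 2.24, 0.725 and 5.04 kb at chr10:79950001-79970000 and 3.63, 0 and 1.24 kb at chr16:18580001-18600000. Of the 191 bins held by E10.5 and not by female lists, 130 were held by no male list, 43 by 1, 18 by 2 and 0 by all 3. Male replicate 2 has 359 peaks in all, the shortest of the 9 H3K27me3 lists. At chr10:57680001-57700000 male lists held 6.60, 4.07 and 8.23 kb, and at chr8:56200001-56210000 they held 1.43, 1.15 and 4.99 kb.

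H3K27me3 peaks were set against the H3K9me3 peaks of the same group and replicate number. Of the H3K27me3 length, 5.52, 0.456 and 0.681% lay in H3K9me3 peaks in female lists and 0.750, 5.02 and 0.0426% in E10.5 lists. The H3K9me3 lists they were set against covered 6.04, 12.2 and 4.28 Mb in female and 2.00, 46.6 and 0.441 Mb in E10.5 cells, lists of very unequal length, so the shares were not compared between stages.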
